A study of Mus musculus with 8 samples.

Results

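A set of 10 genes that mark the fibroblasts and mesenchymal progenitors of the arterial adventitia, the outer coat of the vessel wall, was followed in arrays of PMCA4 knockout and wild-type smooth muscle cells. The genes are Pdpn, Dpt, Ly6a, Cd34, Thy1, Gsn, Pi16, Mfap5, S100a4 and Cd248, and every probe annotated to one of them was taken, whatever its value. The array named 16593 genes. Of the 10 markers, 9 had a named probe and 1, Ly6a, which encodes the stem cell antigen Sca-1, had none, so Ly6a was not analysed here. Cd248 had 2 probes and the others 1 each, which made 10 marker probes among the 25697 probes of each array.

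The cells were primary vascular smooth muscle cells from the carotid arteries of male mice of the C57bl6 background. One group of 4 samples carried a knockout of PMCA4, the plasma membrane calcium pump encoded by Atp2b4, and the other group of 4 was wild type for it. Both groups were synchronised with serum, stimulated with serum and the platelet-derived growth factor PDGF-BB, stained with the DNA dye Hoechst and sorted for early G1, and the total RNA of each sample went to 1 Illumina bead array. The labels give neither the ages of the mice nor the deleted part of the gene. Nor do they tell whether each sample was a mouse or culture of its own, so the p-values measure the spread between samples, which may be a technical one.

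The knockout itself could not be checked on these arrays. The only Atp2b4 probe above background averaged a log2 intensity of 6.95 ± 0.27 in knockout and 6.89 ± 0.14 in wild type (SD, n = 4 each), and a probe outside the deleted part checks nothing, so the direction of each change depends on how the arrays were labelled. A probe counted as detected, or above background, where its detection p was under 0.05, and each array detected 11697 to 11987 probes. The first principal component of the tested probes separated the genotypes and held 87.26% of the variance. As there were only 4 arrays a genotype, their number limits the precision of every value.

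Adventitial fibroblasts build the loose collagen coat around an artery, and part of them act as progenitors that can supply other mesenchymal cells to the wall. They are usually recognised by surface proteins (podoplanin, CD34, Thy-1, endosialin and Sca-1) and by proteins they secrete into the matrix (dermatopontin, the microfibril protein Mfap5 and the protease inhibitor-like Pi16). None of these markers belongs to one cell type alone. Podoplanin also marks lymphatic endothelium and mesothelium, CD34 marks endothelium and blood progenitors, Thy-1 marks T cells and neurons, and gelsolin is present in smooth muscle.

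The comparison of the genotypes asked how transcripts of these markers differ between early G1 cells with and without the pump. Most of the markers were higher in the cells labelled knockout, and most of those by a large amount. Of the 10 marker probes, 9 rose, 0 fell and 1 did not pass the limma test at an adjusted p of 0.05. Of all 12040 tested probes, 26.3% rose and 30.0% fell. The markers, and the gene lists read below, were chosen with earlier results of these data known. The shares of all probes or genes are therefore given for description, not as a test. Pdpn, Dpt, Mfap5, Thy1, Gsn and Cd34 rose by more than 2 on the log2 scale, as did 1.64% of all tested probes. Pi16 and Cd248 rose by less than 1 on that scale, and S100a4 did not pass. The 4 knockout arrays lay wholly above the 4 wild-type arrays for 8 of the 10 marker probes. Of all tested probes, 51.5% had arrays of the genotypes that did not overlap, a share that counts both directions. For those 8 marker probes the exact two-sided permutation test of 4 arrays against 4 gave p = 0.0286, the smallest it can give. Every probe whose arrays do not overlap gets this value, so it adds nothing to the separation itself. All 10 marker probes passed the filter on dim probes, which asked for detection on 4 or more of the 8 arrays.

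**Figure D1:**
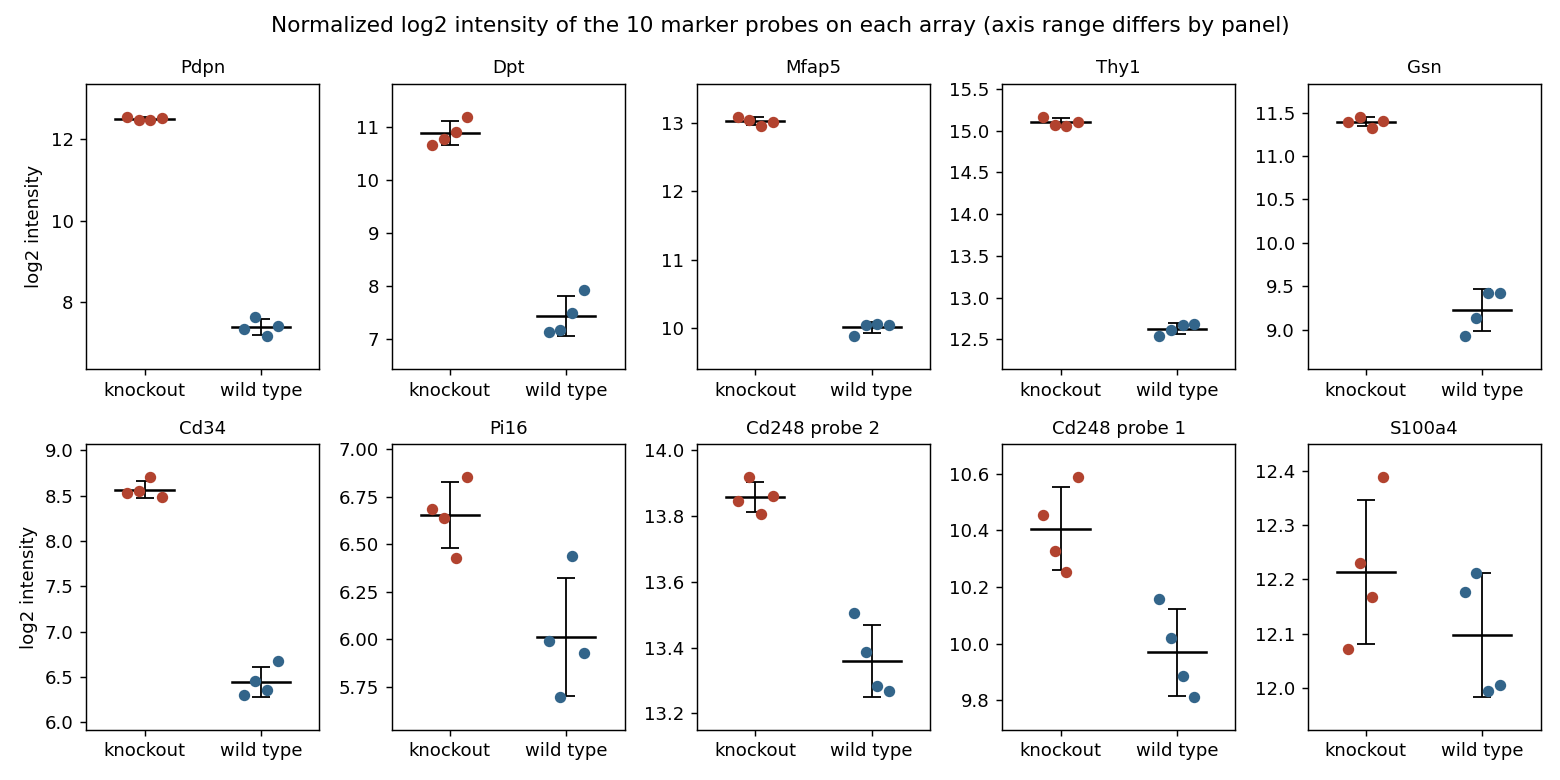
Normalized log2 intensity (vertical axis, with its own range in each panel) of the 10 marker probes on the 4 knockout arrays, left, and the 4 wild-type arrays, right. Each point is 1 array, and the bars give the mean and SD. The genotypes overlap for Pi16 and S100a4 and are apart for the other 8 probes.

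Since 6 of the marker probes rose by more than 2 on the log2 scale, promoter sequences of the marker genes were read. The 250 bases before the annotated starts came from the RefSeq promoter table (build GRCm38.p6), which held 8 such windows for 6 of the 10 genes. These genes were Pdpn, Dpt, Cd34, Gsn, Pi16 and S100a4, whereas Thy1, Mfap5, Cd248 and Ly6a had no window. Shown are Pdpn and Dpt, with the largest rises, Cd34, a surface marker, and S100a4, the marker that did not pass. Each is written 5′ to 3′ on the gene's strand, and capitals mark matches on either strand to any of the motifs searched. The window of Pdpn is chr4:143299565-143299814 on the minus strand, and the others are on the plus strand, at chr1:164796413-164796662 for Dpt, chr1:194938571-194938820 for Cd34 and chr3:90603520-90603769 for S100a4.
Pdpn: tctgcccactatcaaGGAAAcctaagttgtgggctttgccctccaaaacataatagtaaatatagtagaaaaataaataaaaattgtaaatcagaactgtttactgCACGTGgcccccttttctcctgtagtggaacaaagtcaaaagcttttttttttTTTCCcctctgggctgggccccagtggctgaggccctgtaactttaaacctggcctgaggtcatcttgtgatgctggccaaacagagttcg
Dpt: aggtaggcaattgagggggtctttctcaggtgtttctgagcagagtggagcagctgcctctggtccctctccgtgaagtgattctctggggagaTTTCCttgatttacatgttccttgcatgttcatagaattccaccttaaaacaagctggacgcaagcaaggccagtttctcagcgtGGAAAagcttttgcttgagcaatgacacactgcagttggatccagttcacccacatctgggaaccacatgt
Cd34: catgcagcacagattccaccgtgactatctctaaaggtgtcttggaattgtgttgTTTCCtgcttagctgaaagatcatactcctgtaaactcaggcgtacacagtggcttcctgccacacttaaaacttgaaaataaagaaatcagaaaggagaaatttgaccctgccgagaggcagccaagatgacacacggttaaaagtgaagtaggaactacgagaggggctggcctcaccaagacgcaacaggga
S100a4: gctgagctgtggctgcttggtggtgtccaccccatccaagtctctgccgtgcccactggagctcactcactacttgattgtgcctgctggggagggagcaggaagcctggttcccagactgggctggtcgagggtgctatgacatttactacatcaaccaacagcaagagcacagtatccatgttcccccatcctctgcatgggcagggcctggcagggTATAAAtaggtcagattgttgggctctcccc

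The motifs searched, each on both strands, were the TATA box TATAAA, the CCAAT box, the GC box GGGCGG, the E-box CACGTG, the AP-1 motif TGANTCA, the NFAT core GGAAA, the TEAD motif CATTCC and the CArG box. A TATAAA stood 31 to 26 bases before the start of S100a4 and in no other marker window, while 12.4% of all 32851 windows held one. The palindromic E-box occurred 144 to 139 bases before the start of Pdpn and in no other marker window, and 6.02% of all windows held it. The NFAT core was present in 6 of the 8 marker windows, those of 5 genes and none of S100a4, and in 55.6% of all windows. Dpt and Pdpn each held 2 copies and Cd34 held 1. The GC box was found in 3 of the 8 marker windows, all of Gsn, and the CCAAT box in 3, those of Gsn and Pi16, and they occurred in 32.7% and 33.8% of all windows. The AP-1 motif, the TEAD motif and the CArG box, through which serum response factor acts on contractile genes, were in none of the marker windows, and in 6.75%, 12.6% and 1.47% of all windows. GC content was 43.2% for Pdpn, 48.8% for Dpt, 46.4% for Cd34 and 57.2% for S100a4, and the median of all windows was 52.4%. These matches describe the letters only, with no measure of binding.

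Among the surface markers, Pdpn changed most. Its gene lies on chromosome 4 and encodes podoplanin, a mucin-like membrane glycoprotein that binds the platelet receptor CLEC-2 and links to the cortical actin skeleton. Its probe had log2 intensities of 12.56, 12.47, 12.48 and 12.53 on the knockout arrays, against 7.34, 7.62, 7.16 and 7.41 on the wild-type arrays. In the intensities as deposited this was 5748 to 5990 in knockout and 119 to 189 in wild type. All 4 knockout arrays were close to each other and far above every wild-type array, although the probe was detected on all 8 arrays. The log2 change was 5.13 (standard error 0.09, limma adjusted p = 9.51e-11), a 35.0-fold rise.

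Thy1, on chromosome 9, encodes the lipid-anchored surface protein Thy-1 or CD90, a general marker of fibroblasts and mesenchymal stromal cells. The 4 knockout arrays gave log2 intensities of 15.17, 15.06, 15.05 and 15.11, against 12.54, 12.61, 12.67 and 12.68 on the wild-type arrays. The arrays of a genotype differed little, with an SD of 0.05 in knockout and 0.07 in wild type. Thy1 rose by 2.47 on the log2 scale (standard error 0.06, limma adjusted p = 5.70e-10), or 5.56-fold.

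Cd34, on chromosome 1, encodes a sialomucin of progenitor and endothelial surfaces. The Cd34 probe had log2 intensities of 8.53, 8.55, 8.70 and 8.48 in knockout, against 6.31, 6.45, 6.35 and 6.68 in wild type. The wild-type arrays were close to background, with detection p-values from 0.00376 to 0.0125, and those of the knockout arrays were all 0. The fitted change was 2.12 on the log2 scale (standard error 0.09, limma adjusted p = 2.79e-08), or 4.35-fold.

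Cd248, on chromosome 19, encodes endosialin, a C-type lectin-like receptor of fibroblasts and pericytes. Its brighter probe had log2 intensities of 13.84, 13.92, 13.80 and 13.86 in knockout, against 13.50, 13.39, 13.28 and 13.27 in wild type. The dimmer probe gave 10.45, 10.33, 10.25 and 10.59 in knockout, against 10.16, 10.02, 9.89 and 9.81 in wild type. Both probes placed all knockout arrays above all wild-type arrays, and on both the highest wild-type array was replicate 1 and the lowest was replicate 4. The probes did not share an order in knockout, where the brighter was highest on replicate 2 and the dimmer on replicate 4. On the log2 scale, the brighter probe rose by 0.50 (standard error 0.07) and the dimmer by 0.44 (standard error 0.10, limma adjusted p = 0.000161 and 0.00337), so the 2 probes of the gene gave the same direction and sizes of 1.41-fold and 1.35-fold.

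The secreted markers also rose, by different amounts. Dpt, on chromosome 1, encodes dermatopontin, a small matrix protein that binds decorin and helps collagen fibrils to assemble. Its log2 intensities were 10.67, 10.78, 10.91 and 11.20 in knockout, against 7.13, 7.16, 7.49 and 7.93 in wild type. This was the marker that varied most among arrays of a genotype, with an SD of 0.23 in knockout and 0.37 in wild type. The lowest knockout array was still well above the highest wild-type array. The log2 change was 3.46 (standard error 0.18, limma adjusted p = 1.18e-07), or 11.03-fold.

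Mfap5, on chromosome 6, encodes the microfibril glycoprotein MAGP-2, which binds fibrillin. The Mfap5 probe read 13.10, 13.05, 12.95 and 13.02 on the log2 scale in knockout, against 9.88, 10.05, 10.05 and 10.05 in wild type. Apart from wild-type replicate 1, which was lower, the wild-type arrays were nearly equal. The rise was 3.02 on the log2 scale (standard error 0.06, limma adjusted p = 2.58e-10), or 8.12-fold.

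Pi16, on chromosome 17, encodes a secreted protein of the CAP family and marks a progenitor-like fibroblast population found in many mouse tissues. Its log2 intensities were 6.69, 6.64, 6.43 and 6.85 in knockout, against 5.99, 5.70, 6.44 and 5.93 in wild type. The genotypes overlapped, because wild-type replicate 3 lay just above knockout replicate 3. Detection p-values ran from 0.00251 to 0.00752 in knockout and from 0.00752 to 0.0589 in wild type, where replicate 2 was not above background. The log2 change was 0.64 (standard error 0.15, limma adjusted p = 0.00433), or 1.56-fold, and the exact two-sided permutation test gave p = 0.0571.

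The remaining markers, Gsn and S100a4, both encode calcium-binding proteins, but their values differed. Gsn, on chromosome 2, encodes gelsolin, which severs and caps actin filaments in a calcium-dependent way. The Gsn probe had log2 intensities of 11.39, 11.45, 11.33 and 11.40 in knockout, against 8.93, 9.13, 9.42 and 9.42 in wild type. The knockout arrays were close together and all were above the wild-type arrays, which spread more. The log2 change was 2.17 (standard error 0.11, limma adjusted p = 9.60e-08), or 4.49-fold.

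S100a4, on chromosome 3, encodes the EF-hand protein also called fibroblast-specific protein 1. Its log2 intensities were 12.07, 12.23, 12.17 and 12.39 in knockout, against 12.18, 12.21, 11.99 and 12.01 in wild type. The genotypes overlapped, and the probe was detected on all 8 arrays. The difference of 0.12 on the log2 scale had a 95% interval from -0.07 to 0.31 (limma adjusted p = 0.267), and the exact two-sided permutation test gave p = 0.2. Of its neighbours in the chromosomal cluster of S100 genes, S100a6 also did not pass, with a difference of 0.12 (limma adjusted p = 0.227). S100a16 rose by 0.65 on the log2 scale, and S100a3 and S100a5 rose by 2.02 and 0.89, each being detected on 4 knockout arrays and 1 wild-type array. S100a7a passed the test as higher in knockout, where all 4 arrays detected it, and 0 of the 4 wild-type arrays did. Differences between these genes and S100a4 were not tested.

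Ordered by log2 change, the markers were Pdpn, Dpt, Mfap5, Thy1, Gsn, Cd34, Pi16, Cd248 and S100a4. The 95% interval of Pdpn, 4.92 to 5.33, lay above that of Dpt, 3.06 to 3.86. The intervals of Dpt and Mfap5 overlapped, that of Mfap5 being 2.88 to 3.17, and that of Gsn (1.92 to 2.41) overlapped those of Thy1 (2.34 to 2.61) and Cd34 (1.92 to 2.32), which lay just apart from each other. There was then a gap to Pi16, at 0.31 to 0.97, and to the Cd248 probes, at 0.34 to 0.65 and 0.22 to 0.65. Differences between the changes of single markers were not tested.

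**Figure D2:**
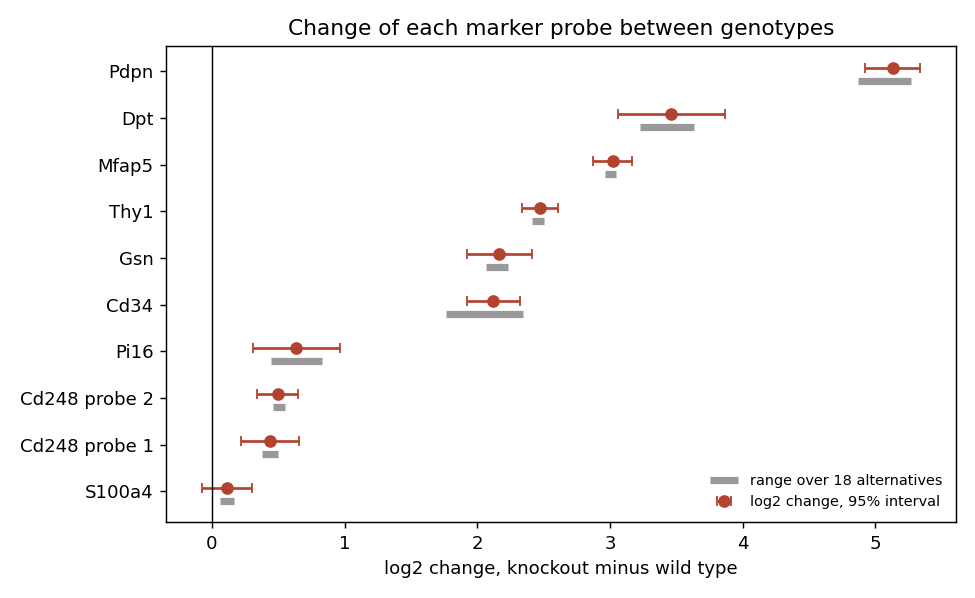
Log2 change of each marker probe, knockout minus wild type (horizontal axis), with its 95% confidence interval in red and, in grey, the range of the fitted change over 18 processing alternatives. Pdpn stands highest at 5.13, 6 probes lie above 2, and only the interval of S100a4 crosses 0. Cd248 probe 2 is the brighter of the pair.

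The gene nearest to each marker in size and pattern of change was sought among 8293 other tested genes, as the smallest root mean square difference of the 8 log2 values after each probe was set to 0 at its wild-type mean. The nearest to Pdpn was Igfbp6, which encodes a binding protein of insulin-like growth factors, at 0.25 log2 units. The nearest to Dpt was Tgfbi, a secreted adhesion protein induced by TGF-beta, also at 0.25. Mfap5 lay nearest to Cpxm1 at 0.066, Cd34 to Pde1b at 0.053, Gsn to Nptx2 at 0.081 and Thy1 to Cpb1 at 0.081, Cpb1 being undetected on the wild-type arrays. Pi16 lay nearest to Sdcbp2 at 0.11, and the Cd248 probes to Eif4a2 and Polk at 0.025 and 0.024. With only 2 genotypes, this likeness is mainly one of the size of the change.

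A further 32 genes often used for adventitial fibroblasts and mesenchymal progenitors were taken as a list, of which 31 were on the array and 24 passed the filter. Of these 24, 16 rose, 2 fell and 6 did not pass, and of all 8302 tested genes 26.9% rose and 30.7% fell. The median log2 change was 0.91, or 0.43 over all 31 genes without the filter, and that of all tested genes was -0.02. The largest changes were in the secreted genes Dcn, Igfbp6, Serpinf1 and Lum. Dcn, which encodes the collagen-binding proteoglycan decorin, averaged 14.14 ± 0.07 in knockout and 7.37 ± 0.37 in wild type (SD, n = 4 each). Igfbp6 averaged 11.92 ± 0.06 in knockout and 6.97 ± 0.22 in wild type, and Serpinf1, the anti-angiogenic factor PEDF, averaged 14.62 ± 0.08 in knockout and 9.70 ± 0.24 in wild type. Lum, the proteoglycan lumican, stayed at background on every wild-type array and was higher in knockout by at least 11.5-fold.

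Not all of that list moved the same way, as the following genes, picked after their values were seen, show. The 2 that fell were Sfrp2, a secreted Wnt antagonist, at background on every knockout array and lower there by at least 2.53-fold, and Nt5e, the ectonucleotidase CD73 of mesenchymal stromal cells, which fell by 0.85 on the log2 scale (limma adjusted p = 0.000155). The 6 that did not pass were Col15a1, Fbln1, Fbln2, Clec3b, Procr and Vcam1, with log2 differences from -0.05 to 0.23. For Fbln2, another of its 3 probes rose by 0.96 on the log2 scale. Not above background on any array were Gli1, Dpp4, Tcf21, Sema3c, Sfrp4 and Ackr3, of which Gli1 and Dpp4 are used as markers of adventitial and of Pi16-type progenitors.

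A list of 56 relatives and binding partners of the markers was also read, with 52 on the array and 34 tested. Of these 15 rose, 7 fell and 12 did not pass, beside 26.9% of all tested genes that rose and 30.7% that fell. The median log2 change was 0.16, or 0.069 over all 52 genes without the filter. The largest changes were those of Tgfbi, Vit, S100a3 and Ly6c1. Tgfbi, a matrix adhesion protein, averaged 12.61 ± 0.07 in knockout and 9.32 ± 0.14 in wild type (SD, n = 4 each), a 9.77-fold rise. Vit, the matrix protein vitrin, was at background on every knockout array, and lower there by at least 3.82-fold. Ly6c1, a relative of Ly6a on leukocyte and endothelial surfaces, averaged 9.37 ± 0.12 in knockout and 7.40 ± 0.21 in wild type, a 3.91-fold rise. Because Ly6 genes are close copies of each other, the Ly6c1 probe may also read relatives. None of the other Ly6 genes on this list passed as higher. Ly6d was at background on every knockout array and lower there by at least 1.65-fold, and Ly6e did not pass (limma adjusted p = 0.0973). Ly6k was above background on 2 wild-type arrays only, and Ly6f, Ly6h and Ly6i on no array.

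The relatives of single markers gave mixed values, and the examples in this paragraph were picked after their values were seen. Mfap2, the other microfibril glycoprotein of the MAGP pair, rose by 1.67 on the log2 scale, while Mfap4 rose by 0.34 (limma adjusted p = 2.90e-07 and 0.0474). Podxl2, a sialomucin of the CD34 family, fell by 1.31 on that scale, and Podxl differed by -0.09 (limma adjusted p = 1.28e-07 and 0.627). Of the gelsolin family, Scin was at least 1.79-fold higher in knockout, Capg rose by 0.37 on the log2 scale, and Flii and Svil did not pass. Thbd, the thrombomodulin gene, whose product shares its domain layout with endosialin, rose 3.53-fold. Of the actin linkers that bind podoplanin, Msn rose by 0.54 on the log2 scale and Ezr fell by 0.35.

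**Figure D3:**
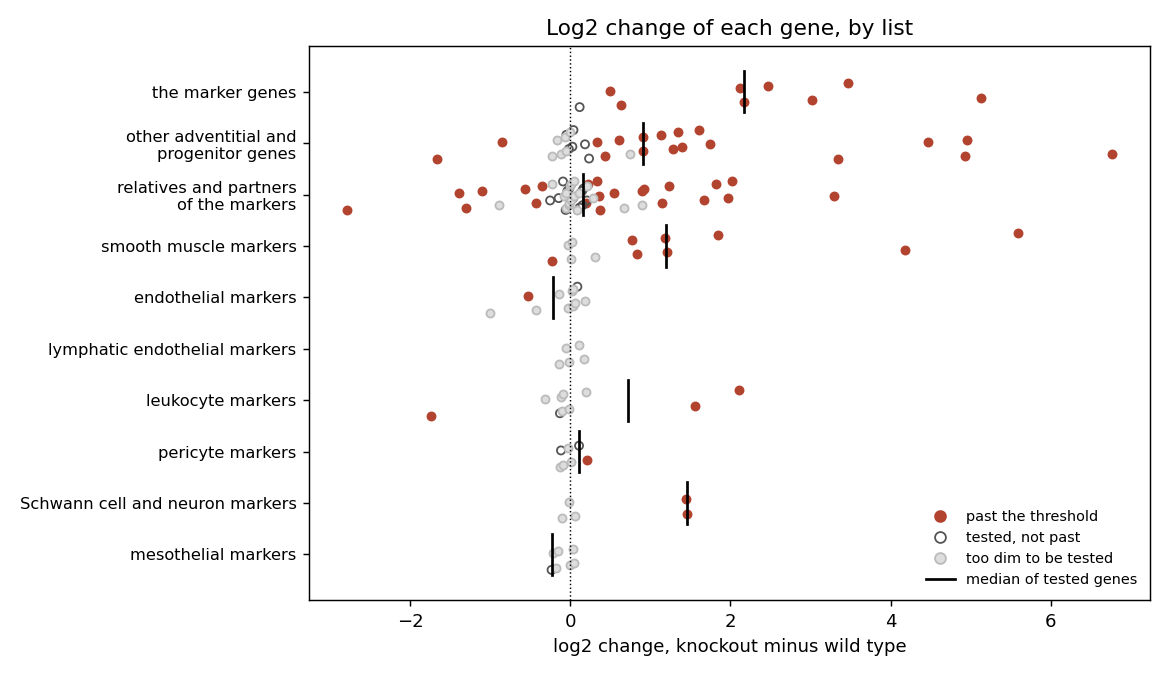
Log2 change, knockout minus wild type (horizontal axis), of each gene on the array in the marker set and 9 other lists. Each point is 1 gene at its brightest probe, preferring tested ones, with red for genes past an adjusted p of 0.05, open points for genes tested and not past it and grey for genes too dim to be tested, and vertical bars mark the median of tested genes. The marker genes have a median of 2.17 and none below 0, and every lymphatic endothelial gene is too dim to be tested.

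Markers of the labelled cell type and of other cells of the wall were read beside these results. In bulk samples, more cells of a type and more RNA per cell cannot be told apart. Smooth muscle markers rose as well: of 12 genes 8 were tested, of which 7 rose and 1 fell. Of all tested genes 26.9% rose and 30.7% fell. The gene that fell was Smtn, by 0.22 on the log2 scale (limma adjusted p = 0.0272). The median log2 change of the tested markers was 1.19, or 1.08 with genes at background in 1 genotype counted at their lower bound. Over all 12 smooth muscle markers without the filter it was 0.80. Their summed normalized intensity was 80205 to 84328 in knockout and 42657 to 48592 in wild type. The brightest gene in this sum was Acta2, at a mean log2 intensity of 15.93 in knockout and 15.10 in wild type. Actg2, Mylk and Myh11 stayed at background on the wild-type arrays, so they passed the filter through the knockout arrays alone. They were higher in knockout by at least 32.1-fold, 11.7-fold and 1.98-fold, and Lmod1 rose 2.31-fold. Acta2, smooth muscle alpha actin, was detected on all 8 arrays and rose on the log2 scale by 0.83 at the brightest of its probes and by 2.13 to 2.79 at 3 others. Cnn1 and Synpo2 were not above background on any array.

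Defining markers of the other cell types in which these genes are known were mostly at background. For the lymphatic endothelium, where Pdpn is known, all 5 genes on the array, among them Lyve1 and Prox1, were not above background on any array, and their summed intensity was 153 to 165 in knockout and 146 to 183 in wild type. Genes at background still add to this and the other sums, because processing added an offset of 16 to every intensity. For the mesothelium 6 of 7 genes were likewise undetected, Msln and Upk3b included, with sums of 246 to 270 in knockout and 267 to 293 in wild type. For the endothelium, where Cd34 is known, 7 of 11 were undetected, among them Pecam1, Cdh5 and Vwf. The endothelial sums were 615 to 729 in knockout and 685 to 804 in wild type. Egfl7 was detected on all 8 arrays, averaging 8.25 in knockout and 8.16 in wild type, and did not pass (limma adjusted p = 0.476). Esam fell by 0.52 on the log2 scale. Emcn was above background on 2 wild-type arrays only, and Robo4 on 1 knockout array only.

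Leukocyte and nerve markers included some that rose. Of 10 leukocyte genes on the array, 6 were undetected, Ptprc (CD45) and Itgam among them. Of the 4 tested 2 rose and 1 fell, beside 26.9% of all tested genes that rose and 30.7% that fell. The 2 that rose passed the filter through the knockout arrays alone. The median log2 change of the 4 was 0.71, or 0.39 with the 2 that rose counted at their lower bound. Over all 10 leukocyte genes without the filter it was -0.098. Cd3e and Lyz2 were at least 1.87-fold and 2.40-fold higher in knockout and not above background in wild type, and Cd14 was 3.34-fold lower. The Lyz2 rise came from 1 of the gene's 3 probes. Each remaining Lyz2 probe went undetected in knockout and wild type alike, with log2 differences of 0.60 and -0.006. The summed intensity of this list was 547 to 573 in knockout and 558 to 660 in wild type. Of 5 Schwann cell and neuron genes, 3 were undetected, Gfap and S100b included, and Uchl1 and Ncam1 rose 2.75-fold and 2.73-fold, with sums of 1047 to 1138 in knockout and 423 to 526 in wild type. A dimmer probe of Ncam1 rose less, by 0.65 on the log2 scale. Of 7 pericyte genes 4 were undetected, Rgs5 among them, and Cspg4 rose by 0.21 on the log2 scale (limma adjusted p = 0.0362). Pdgfrb and Notch3 were detected on every array and did not pass, with log2 differences of -0.12 and 0.11 (limma adjusted p = 0.260 and 0.328). The pericyte sums were 2033 to 2334 in knockout and 2150 to 2470 in wild type. The part of any of these cells in the marker changes was not tested.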

How the data were processed

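RNA was isolated with a PicoPure kit and turned into biotin-labelled cRNA for Illumina arrays, per the labels' protocols. In the deposited non-normalized table, each probe and array has an intensity and, per the file headers, a detection p-value. Of the intensities, 28.42% to 29.69% were below 0, so a background had been taken off before deposit. The deposited log2 table, whose columns share their sorted values to within 0.000531, was tried only as an alternative. No software is named for either table in the sources used here.

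For the main values, neqc (limma 3.58.1, R 4.3.3) removed background with negative controls inferred from the detection p-values, added an offset of 16 and applied quantile normalization and log2. The limma fit of genotype, with no block, covered the 12040 probes detected on 4 or more of 8 arrays, and Benjamini-Hochberg adjustment ran over all of them. Changes are knockout minus wild type. For a probe undetected on every array of a genotype, the fold is a lower bound against, per array, the higher of its value and the dimmest detected probe. Each gene is given at its tested probe of highest mean. Probes were named through the platform annotation and the GRCm38.p6 gene table, which matched 23962 of 23978 named probes, and 1719 had no symbol.

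The markers and lists were chosen with earlier results of these data known. Genes named by rule are all marker probes, Atp2b4, up to 4 largest changes past the threshold in each list and the nearest gene of each risen marker. The chromosomal neighbours of S100a4 were named by position. Other genes named from the lists were picked after their values were seen. There were 18 alternatives: 2 other background treatments (none, and an offset of 50), 2 other normalizations (median, cyclic loess), the deposited log2 values, no filter, a detection limit of 0.01, a trended robust variance, weighted arrays, the replicate number as block, and each of 8 arrays left out. Figures were drawn with matplotlib 3.10.9.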

Additional observations from a re-analysis of the deposited data

Results flagged for a closer look

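Among 60 groups of 4 arrays (the marker probes, Atp2b4 and the genes named by rule from the lists, in each genotype), 4 held 1 array that stood far from the other 3 by Dixon's criterion, and chance gives about 1 in 20. For Mfap5, wild-type replicate 1 had a log2 intensity of 9.8821, against 10.05 on the other 3 wild-type arrays, and the rise was 3.02 with all arrays. For Dcn, knockout replicate 4 stood at 14.2397, against 14.10 to 14.12 on the other knockout arrays. For S100a3, knockout replicate 3 stood at 7.4391, against 7.75 to 7.81. For Cd14, wild-type replicate 1 stood at 8.394, against 7.85 to 7.94. Each of these gaps was smaller than the difference between the genotypes.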

How the results depend on the processing

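Under all 18 alternatives the 9 marker probes that rose kept their direction and stayed past the threshold, and S100a4 stayed short of it, with log2 differences from 0.06 to 0.16. The log2 change ranged from 4.87 to 5.27 for Pdpn, 3.22 to 3.63 for Dpt, 2.97 to 3.05 for Mfap5, 2.41 to 2.50 for Thy1, 2.07 to 2.23 for Gsn, 1.77 to 2.34 for Cd34, 0.44 to 0.83 for Pi16, and 0.38 to 0.50 and 0.46 to 0.55 for Cd248. The extremes for Pdpn, Cd34 and Pi16 came from normexp with an offset of 50 and from no background correction. The number of all probes that rose was 2884 to 3442 and of those that fell 3333 to 3803. With the replicate block 3075 rose and 3466 fell, and 9 marker probes rose; deviations of same-numbered arrays correlated by -0.03 to 0.09, so the numbers were not taken as pairs. Without the filter on dim probes, which adds genes near background, medians moved to 0.43 for the other adventitial list, 0.069 for relatives and partners, 0.80 for smooth muscle, 0.058 for Schwann cells and neurons and -0.0066 for all genes, and changed sign to 0.016 for endothelium, -0.098 for leukocytes and -0.024 for pericytes, from -0.22, 0.71 (0.39 with 2 genes at their lower bound) and 0.11 with it. Signal near background limits Pi16 in both genotypes and Cd34 in wild type.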
